A study of Mus musculus with 6 samples.

Results

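The genes described here encode the transporters and enzymes that take glucose through glycolysis to lactate or to the pyruvate dehydrogenase complex, and those of the pentose phosphate pathway that branches from it. The list of 35 genes was chosen by function, with earlier results of these data known. The platform annotation used here names a probe set for 32 of them, out of 19940 genes represented on the array, and none for Gpi1, Eno1 and G6pdx, which have no value below. Each gene is read through the brightest of its probe sets that name no other gene. Gapdh has only probe sets that also name Gapdh-like genes, and the brightest of these was used.

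Macrophages exposed to bacterial products are known for taking up more glucose and turning much of it into lactate, while the pentose phosphate pathway supplies NADPH for the oxidative burst and for biosynthesis. Glucose is phosphorylated by hexokinases and committed to glycolysis by phosphofructokinase, whose strongest activator is made by the bifunctional PFKFB enzymes. Many steps have several isoenzymes, encoded by separate genes that are used to different extents in different tissues. Hypoxia-inducible factors and Myc are textbook activators of many of these genes.

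RNA was measured on 6 Affymetrix arrays of thioglycolate-elicited peritoneal macrophages of 8-week-old C57BL/6 mice. Thioglycolate broth (2 ml) was given 72 h before harvest, cells adhered for 4 h and rested for another 24 h, and all of them then received lipopolysaccharide (LPS), a bacterial cell wall component, at 100 ng/ml for 6 h. The 3 arrays labelled LysMCre/Cre come from mice with the Cre recombinase on both copies of the lysozyme locus Lyz2, which is active in myeloid cells. The 3 arrays labelled KLF2∆/∆ come from mice with the same Cre on both copies and a floxed Klf2 gene (KLF2 FL/FL), which encodes a zinc finger transcription factor known to restrain myeloid activation. Cells without LPS were not analysed here, so the values compare genotypes after LPS and measure no response to it. The adherent cells were not sorted in the steps that the labels describe, and although the design names 3 mice per genotype, injected as 3 pairs, no label ties an array to a mouse or a replicate number to a pair. The p-values therefore cover the array-to-array spread, which may be technical.

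Klf2 itself read 8.88, 8.97 and 8.94 in LysMCre/Cre and 9.10, 9.25 and 9.21 in KLF2∆/∆ arrays (log2 intensity), a change of 0.26 ± 0.064 (SE, limma adjusted p = 0.00398). The signal of the targeted gene thus goes against the label, and every direction below is one between arrays labelled KLF2∆/∆ and arrays labelled LysMCre/Cre. The sources used here do not place its probes relative to the deleted part, and probes outside that part would check nothing. Lyz2, which carries the Cre in all mice, had a mean of 10.25 in both groups (0.0050, adjusted p = 0.964). The defining macrophage markers Adgre1, Cd68, Csf1r and Itgam had means of 12.57, 13.56, 11.93 and 11.85 in LysMCre/Cre and 12.81, 13.61, 12.09 and 11.63 in KLF2∆/∆ arrays. Of 14 tested macrophage markers 7 were higher and 2 lower (median change 0.12). By the same rule, set out below, 13.6% of all tested genes were higher and 16.2% lower, shares that bear on every marker list here. Linear intensities summed over all macrophage markers with a probe set were 78240 to 79280 in LysMCre/Cre and 84808 to 86518 in KLF2∆/∆ arrays. Of 14 neutrophil markers, 6 lay below the intensity filter described below, among them Ly6g, S100a8, Ngp and Mpo, and Csf3r (means 11.92 and 12.30), Fcnb, Mmp8 and S100a9 were called higher, the last pair with LysMCre/Cre means under that filter (7.47 and 7.38), so that the high group alone let them pass. The sums were 6295 to 6526 and 7647 to 8004. Array medians ran from 7.85 to 7.90. Markers of other cells differed between the groups. Of 17 tested fibroblast and mesothelial markers 14 were lower and none higher (median change -0.68), with summed linear intensities of 23732 to 23917 in LysMCre/Cre and 13602 to 14987 in KLF2∆/∆ arrays. Resident peritoneal macrophage markers were lower in 10 of 11 cases (median -0.70, sums of 23775 to 24348 and 13070 to 13871) and cell cycle genes in 20 of 23 (median -0.62, sums of 16228 to 16714 and 12014 to 12741). Of the genes counted as lower, 3 resident macrophage markers and 1 cell cycle gene passed the filter through the LysMCre/Cre arrays alone. Mast cell and basophil markers were lower in 4 of 4 tested cases, 1 of them passing in the same way (median -0.31, sums of 3278 to 3394 and 2815 to 2922, with 6 of 10 below the filter). Dendritic cell markers were lower in 3 and higher in 1 of 7 (median -0.23, sums of 9751 to 10023 and 7892 to 8160). Of 3 tested T and NK cell markers 1, Il7r, was higher (means 11.85 and 12.39), with 8 of 11 below the filter. None of 4 tested B cell, 1 eosinophil and 1 erythroid marker was called. A further 4 B cell markers lay below the filter, among them Ms4a1 (means 7.25 and 7.65, groups not overlapping). The part of all these in the results below was not tested. In such bulk samples, fewer cells of a type and less RNA per cell cannot be told apart.

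Genes of the pathway moved in both directions. The kinase that drives phosphofructokinase, Pfkfb3, had the largest rise, at 1.61-fold, and the liver-type phosphofructokinase Pfkl the largest fall, at 1.36-fold. The myeloid hexokinase Hk3 was higher while the inducible hexokinase Hk2 was lower. The 8 genes called lower between aldolase and pyruvate or in the pentose phosphate pathway changed by -0.35 to -0.12. A gene was tested where its mean log2 intensity over all arrays reached 7.49, the 40th percentile of the probe sets, and was called at a Benjamini-Hochberg adjusted p of 0.05 in limma, a linear model with variances moderated across all genes. Of 32 genes with a probe set, 30 were tested and 22 were called, 8 higher and 14 lower in KLF2∆/∆ arrays. Over all 12650 tested genes, 29.8% were called, 13.6% higher and 16.2% lower, against 73.3%, 26.7% and 46.7% of the tested members. Brighter genes are called more often: above the 60th percentile, 39.4% of 8484 genes and 20 of 27 members (74.1%) were called. The median change was -0.12 for the tested members and 0.0019 for all tested genes, and the median size of the change was 0.21 and 0.099.

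**Figure D1:**
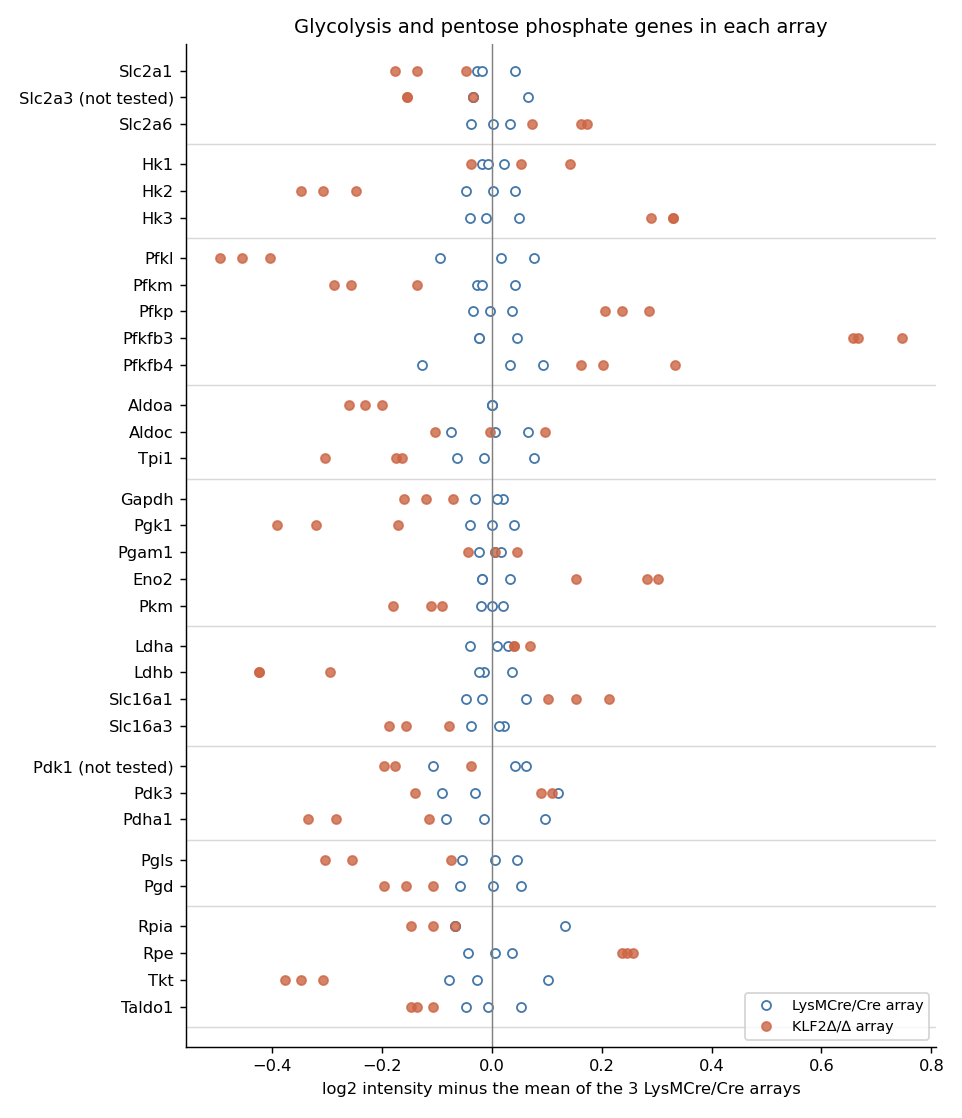
Log2 intensity of each of the 32 genes with a probe set in each array, minus the mean of the 3 LysMCre/Cre arrays of that gene (horizontal axis). Open points are LysMCre/Cre arrays and filled points KLF2∆/∆ arrays, and lines part the 9 role groups; filled points lie farthest right for Pfkfb3 and farthest left for Pfkl.

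The differences were small, and replicate arrays of these genes lay close together. The median standard deviation over 3 arrays was 0.042 in LysMCre/Cre and 0.052 in KLF2∆/∆ for the tested members, against 0.053 and 0.080 for all tested genes. Most members are bright, with 27 above the 60th percentile, and the spread was not compared with genes of like brightness. Without moderation of variances across genes, 12 of the 22 calls were lost: Slc2a1, Slc2a6, Pfkm, Pfkfb4, Tpi1, Gapdh, Pgk1, Pkm, Slc16a1, Pdha1, Pgls and Pgd. Moderation without an intensity trend ended 6 calls, those of Slc2a1 (adjusted p = 0.133), Slc2a6 (0.0872), Gapdh (0.141), Pkm (0.106), Slc16a1 (0.0630) and Pgd (0.0638), which left 6 higher and 10 lower. No member changed by 1 or more on the log2 scale. A call with a change of at least 0.25 was seen in 7 of the 30 tested members, 2 higher and 5 lower. Of all tested genes, 16.5% met the same rule, so the members stand nearer to all genes by this rule than by calls alone. The values of the groups did not overlap for 25 of 30 members, 9 of them higher and 16 lower, against 40.8% of all tested genes, which were not matched for brightness. Within the KLF2∆/∆ group, replicate 2 was the highest array for 18 of 30 members, and for 49% of all tested genes. The median deviation of the members from their own means was 0.073, 0.033 and 0.042 in LysMCre/Cre replicates 1 to 3 and -0.063, -0.028 and -0.036 in KLF2∆/∆ replicates 1 to 3.

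**Figure D2:**
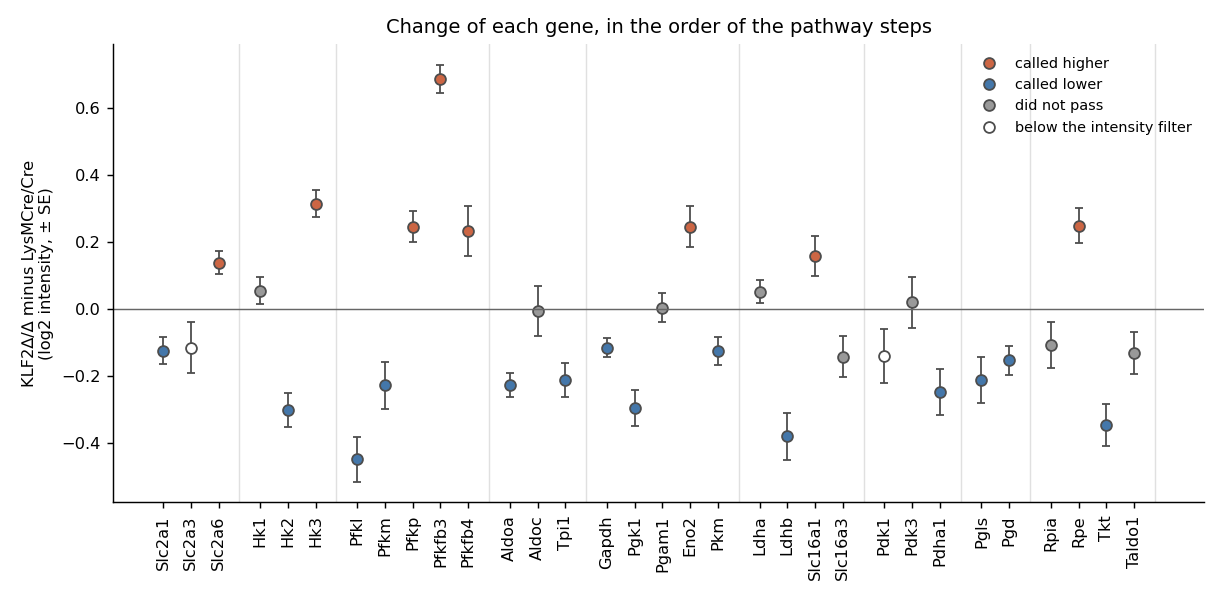
Mean log2 intensity of the 3 KLF2∆/∆ arrays minus that of the 3 LysMCre/Cre arrays (vertical axis, bars are limma standard errors) for the 32 genes in the order of the pathway. Colours mark called and uncalled genes; the changes run from -0.45 (Pfkl) to 0.69 (Pfkfb3).

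Phosphofructokinase and the enzymes that set its activator held the widest spread of changes of any role group of members. All 5 members of this step were called, against 29.8% of all tested genes. Pfkfb2, a further PFKFB gene kept in a neighbouring list and not a member, had the other sign from Pfkfb3 and did not pass (-0.17 ± 0.084, adjusted p = 0.144). Its groups did not overlap, and its KLF2∆/∆ mean lay under the filter level. Pfkfb3 encodes an isoform with far more kinase than phosphatase activity, which makes the sugar bisphosphate that activates phosphofructokinase. It read 11.67, 11.60 and 11.60 in LysMCre/Cre and 12.29, 12.37 and 12.28 in KLF2∆/∆ arrays, groups that lie far apart. The change was 0.69 ± 0.041 (SE, limma adjusted p = 1.17e-10). Pfkfb4, its paralogue, was higher by 0.23 ± 0.074 (adjusted p = 0.0224), but this call was lost without LysMCre/Cre replicate 1 (0.17, adjusted p = 0.158) and without KLF2∆/∆ replicate 2 (0.18, adjusted p = 0.0992).

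Phosphofructokinase itself is a tetramer assembled from liver-type, muscle-type and platelet-type subunits. Pfkl, the liver type, read 8.92, 9.09 and 9.03 against 8.56, 8.61 and 8.52 (-0.45 ± 0.067, adjusted p = 2.62e-05). Every KLF2∆/∆ array lay below every LysMCre/Cre array. Pfkm, the muscle type, was lower by a smaller amount (-0.23 ± 0.069, adjusted p = 0.0168) and did not pass when LysMCre/Cre replicate 1 (adjusted p = 0.0817) or KLF2∆/∆ replicate 1 (adjusted p = 0.0553) was left out. Pfkp, the platelet type, went the other way, from a mean of 11.10 ± 0.035 to 11.35 ± 0.037 (SD, n = 3; limma adjusted p = 0.000272).

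The promoters of the members with the largest rise and the largest fall are shown because many glycolytic genes carry ACGTG, a form of the hypoxia response core, near their start. The search covered both strands (ACGTG and CACGT) in the 250 bases before each RefSeq start of GRCm38.p6. The form GCGTG was not counted, so a core below means ACGTG alone. A core inside the palindrome CACGTG, the E-box bound by Myc and its relatives, was counted as an E-box. Capitals mark these matches, and sequences run 5′ to 3′ on the strand of the gene.
Pfkfb3, distal start (chr2:11553930-11554179, minus strand): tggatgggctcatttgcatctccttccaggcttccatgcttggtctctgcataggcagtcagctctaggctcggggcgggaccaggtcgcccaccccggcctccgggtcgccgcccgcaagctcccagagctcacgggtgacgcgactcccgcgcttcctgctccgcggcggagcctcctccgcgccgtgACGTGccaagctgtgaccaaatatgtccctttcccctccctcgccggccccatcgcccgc
Pfkfb3, proximal start (chr2:11502091-11502340, minus strand): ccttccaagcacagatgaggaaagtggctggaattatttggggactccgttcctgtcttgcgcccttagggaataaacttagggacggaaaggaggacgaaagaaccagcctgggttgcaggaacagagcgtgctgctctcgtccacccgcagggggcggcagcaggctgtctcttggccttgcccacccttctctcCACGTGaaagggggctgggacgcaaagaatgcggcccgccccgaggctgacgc
Pfkl (chr10:78009808-78010057, minus strand): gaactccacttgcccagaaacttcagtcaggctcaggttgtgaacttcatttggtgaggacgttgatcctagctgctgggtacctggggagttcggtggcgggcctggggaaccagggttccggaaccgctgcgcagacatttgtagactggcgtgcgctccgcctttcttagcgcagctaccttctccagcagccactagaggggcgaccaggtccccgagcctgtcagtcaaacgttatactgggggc
The distal Pfkfb3 window holds a core whose first base lies 60 bases before the start, and the proximal window an E-box at 53 bases. The Pfkl window holds neither by this count, though the uncounted GCGTG occurs in it and in the proximal Pfkfb3 window. Of 48 windows of the 34 members in the table, 16 (33.3%) held a core or an E-box, against 16.6% of all 32851 windows. By gene, a match was found for 13 of 34 members (38.2%) and for 18.5% of all 27025 genes. The members and all genes were not matched for base composition, expression or number of starts. It was found for 3 of 8 members called higher, 6 of 14 called lower, 4 of 8 that did not pass, 0 of 1 not tested and 0 of 3 without a probe set. A match is a description of the letters and not a binding site.

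Hexokinases carry out the first step. Hk3, the isoenzyme typical of myeloid cells, read 11.67, 11.70 and 11.76 in LysMCre/Cre and 12.00, 12.04 and 12.04 in KLF2∆/∆ arrays (0.31 ± 0.041 SE, 1.24-fold, adjusted p = 4.91e-06). Hk2, the isoenzyme that many cells induce, read 10.86, 10.90 and 10.81 against 10.51, 10.61 and 10.55 (-0.30 ± 0.050, 1.23-fold lower, adjusted p = 0.000102). Neither gene's groups overlap, and the changes are of like size in opposite directions.

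Hk1, the widely expressed isoenzyme, is read by several kinds of probe set. Its brightest single-gene probe set, annotated by 1 accession, read 12.61, 12.62 and 12.65 against 12.77, 12.59 and 12.68, with overlapping groups (0.055 ± 0.041, adjusted p = 0.365). This change was 0.010 without KLF2∆/∆ replicate 1 and 0.098 without KLF2∆/∆ replicate 2. The other single-gene probe set, annotated by 8 accessions, gave 0.12 ± 0.052 with no overlap, at an adjusted p of 0.100 in a fit of all 17366 probe sets above the filter. Neither passed. A further 16 probe sets that name Hk1 together with the ribosomal protein gene Rpl17 changed by -0.041 to 0.046.

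The windows of both hexokinase genes that were called are shown with the same marks.
Hk2 (chr6:82774455-82774704, minus strand): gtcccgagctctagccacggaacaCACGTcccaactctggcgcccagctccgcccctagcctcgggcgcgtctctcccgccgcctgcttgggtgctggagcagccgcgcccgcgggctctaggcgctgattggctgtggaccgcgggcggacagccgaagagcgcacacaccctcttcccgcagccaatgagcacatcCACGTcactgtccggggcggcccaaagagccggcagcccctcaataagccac
Hk3 (chr13:55021386-55021635, minus strand): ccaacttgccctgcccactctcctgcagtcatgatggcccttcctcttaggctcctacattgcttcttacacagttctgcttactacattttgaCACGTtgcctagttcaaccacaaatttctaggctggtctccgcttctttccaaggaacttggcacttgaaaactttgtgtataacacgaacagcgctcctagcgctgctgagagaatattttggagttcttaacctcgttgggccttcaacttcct
Hk2, which was lower, holds 2 cores, at 226 and 52 bases before the start, and Hk3, which was higher, holds 1 core at 156 bases.

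Among glucose transporters, Slc2a6 encodes GLUT6, a transporter of intracellular membranes. It read 13.33, 13.29 and 13.36 in LysMCre/Cre and 13.40, 13.50 and 13.49 in KLF2∆/∆ arrays, close groups that do not overlap (0.14 ± 0.034, adjusted p = 0.00345). Slc2a1, which encodes the main plasma membrane transporter GLUT1, was lower by a like amount (-0.12 ± 0.040, adjusted p = 0.0237). That call was lost without LysMCre/Cre replicate 2 (-0.10, adjusted p = 0.133), without KLF2∆/∆ replicate 1 (-0.097, adjusted p = 0.0995) and with each array centred on its median (adjusted p = 0.0713). Slc2a3, the gene of GLUT3, lay below the filter, with means of 7.34 and 7.23, and was not tested.

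**Figure D3:**
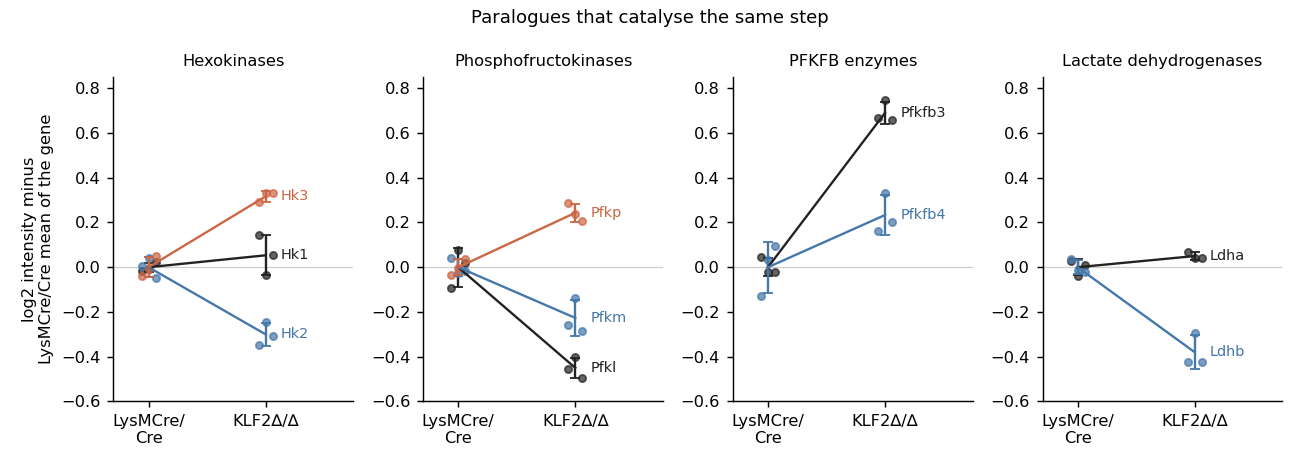
Log2 intensity minus the LysMCre/Cre mean of each gene (vertical axis) for the hexokinases, the phosphofructokinases, the PFKFB enzymes and the lactate dehydrogenases. Points are arrays, lines join group means and bars are standard deviations (n = 3); Hk3 and Pfkp are higher in KLF2∆/∆ arrays where Hk2, Pfkl and Pfkm are lower.

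Paralogues of a family did not all change alike. The tested members fall into 7 families with more than 1 gene, and all 11 pairs within them were compared through the difference between their changes, as a description without a test. In 4 pairs 1 gene was called higher and the other lower: Pfkp against Pfkl (difference 0.69), Hk3 against Hk2 (0.61), Pfkp against Pfkm (0.47) and Slc2a6 against Slc2a1 (0.26). The smallest difference among the 11 pairs was that of Pfkm against Pfkl, at 0.22, both of which were lower.

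Between aldolase and pyruvate, 5 of 8 tested genes were lower and 1 was higher, against 16.2% and 13.6% of all tested genes. Aldoa, the aldolase that splits the hexose bisphosphate, read 12.54 in each LysMCre/Cre array and 12.28, 12.34 and 12.31 in the others (-0.23 ± 0.036, adjusted p = 5.36e-05). Its paralogue Aldoc overlapped between groups (-0.0050, adjusted p = 0.973). Tpi1, which interconverts the triose phosphates, changed by -0.21 ± 0.052 (adjusted p = 0.00339). Pgk1, the kinase of the first ATP-yielding step, read 11.23, 11.27 and 11.19 against 10.91, 11.06 and 10.84 (-0.29 ± 0.054, adjusted p = 0.000252). KLF2∆/∆ replicate 2 was the nearest to the LysMCre/Cre arrays. The 3 probe sets of Pgk1 gave -0.30 to -0.29, but 2 of them hold the same values in every array.

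Gapdh, the dehydrogenase of the same stretch and often taken as a reference gene, read 14.11, 14.06 and 14.10 in LysMCre/Cre and 13.93, 13.97 and 14.02 in KLF2∆/∆ arrays. This is a shift of 1.08-fold without overlap (-0.12 ± 0.029, adjusted p = 0.00414). All 25 of its probe sets also name Gapdh-like genes, so its signal cannot be set apart from theirs, and their changes ran from -0.13 to -0.079. The call was lost when quantile normalization was applied again (-0.084, adjusted p = 0.102). Pkm, the pyruvate kinase gene, changed by -0.13 ± 0.042 (adjusted p = 0.0290), a call lost without LysMCre/Cre replicate 1, 2 or 3 (adjusted p of 0.0711 to 0.119), without KLF2∆/∆ replicate 2 (adjusted p = 0.0732) and with median centring (adjusted p = 0.0751), while its other probe set gave -0.19 (adjusted p = 0.00289 over all probe sets above the filter).

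Eno2 and the brightest probe set of the phosphoglycerate mutase gene Pgam1 did not share this direction. Eno1 has no probe set here, so among the members enolase was read through Eno2 alone. Eno2, the enolase first known from neurons, was higher by 0.25 ± 0.062 (means 9.17 and 9.41, adjusted p = 0.00440). Pgam1 read 11.56, 11.57 and 11.53 against 11.60, 11.56 and 11.51, which overlap (0.0041, adjusted p = 0.961). Its 2 other probe sets, which hold the same values in every array, had the other sign (-0.057).

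At the end of the pathway, Ldha, whose enzyme turns pyruvate into lactate, read 12.76, 12.69 and 12.74 in LysMCre/Cre and 12.80, 12.77 and 12.77 in KLF2∆/∆ arrays. The groups met without overlapping, and the change of 0.052 ± 0.034 did not pass (adjusted p = 0.298). Without LysMCre/Cre replicate 2 it was 0.032. Ldhb, whose subunit favours the reverse reaction, read 8.23, 8.18 and 8.17 against 7.77, 7.90 and 7.77, which lie clearly apart (-0.38 ± 0.070, adjusted p = 0.000299). These values are those of the brighter of its 2 probe sets. The dimmer one read 8.02, 7.83 and 7.52 against 7.44, 7.53 and 7.60, with overlapping groups. It changed by -0.27 and did not pass (limma adjusted p = 0.0831 over all probe sets above the filter).

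Of the listed lactate and pyruvate transporters, Slc16a1 narrowly passed and Slc16a3 did not. Slc16a1, the gene of MCT1, changed by 0.16 ± 0.059 at an adjusted p of 0.0496, and lost its call in 5 of the 6 fits that leave out 1 array, all but the one without KLF2∆/∆ replicate 3 (changes of 0.13 to 0.19 and adjusted p of 0.0558 to 0.213 in those 5). Median centring (adjusted p = 0.0698) and testing without the intensity filter (adjusted p = 0.0690) also ended it. Slc16a3, the gene of the lactate exporter MCT4, changed by -0.14 ± 0.061 and did not pass (adjusted p = 0.0871), but did so without KLF2∆/∆ replicate 2 (-0.17, adjusted p = 0.0330).

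The pyruvate dehydrogenase complex admits pyruvate to the mitochondrial citrate cycle. Pdha1, its catalytic alpha subunit, read 9.61, 9.72 and 9.54 in LysMCre/Cre and 9.29, 9.51 and 9.34 in KLF2∆/∆ arrays, groups that nearly meet (-0.25 ± 0.069, adjusted p = 0.00926). The call was lost without LysMCre/Cre replicate 2 (-0.20, adjusted p = 0.0718) and without KLF2∆/∆ replicate 1 (-0.20, adjusted p = 0.0601). Of the kinases that switch the complex off, Pdk3 overlapped between groups (0.020, adjusted p = 0.887) and Pdk1, with means of 7.42 and 7.28, lay below the filter.

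Of the pentose phosphate pathway, 6 genes were tested and 4 of these were called, 3 lower and 1 higher. The share called over all tested genes was 29.8%. In the oxidative arm, which yields NADPH, phosphogluconate dehydrogenase (Pgd) read 11.80, 11.91 and 11.86 against 11.70, 11.75 and 11.66 (-0.15 ± 0.043, adjusted p = 0.0106), a call lost without LysMCre/Cre replicate 2 (-0.13, adjusted p = 0.0869). The lactonase gene Pgls changed by -0.21 ± 0.068 (adjusted p = 0.0221) and did not pass when LysMCre/Cre replicate 1 or 2 (adjusted p = 0.0659 and 0.0981) or KLF2∆/∆ replicate 1 or 2 (0.0819 and 0.0837) was left out, nor after repeated quantile normalization (-0.16, adjusted p = 0.0776). Both groups of values are close to each other in these genes.

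In the non-oxidative arm, which links pentoses back to glycolysis, Tkt and Rpe kept their call in every fit that left out 1 array. Tkt, the transketolase gene, read 9.28, 9.46 and 9.33 in LysMCre/Cre and 8.98, 9.05 and 9.01 in KLF2∆/∆ arrays (-0.35 ± 0.064, 1.27-fold lower, adjusted p = 0.000278). Rpe, the ribulose phosphate epimerase gene, read 9.99, 9.91 and 9.96 against 10.19, 10.21 and 10.20 (0.25 ± 0.053, adjusted p = 0.00113). Each is separated from the other group by more than the range within either. The isomerase gene Rpia (-0.11, adjusted p = 0.281, but -0.041 without LysMCre/Cre replicate 1) and the transaldolase gene Taldo1 (-0.13, adjusted p = 0.129) did not pass.

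For the brightest members, the promoter windows of Gapdh and Slc2a6 are shown beside those above. Neither holds ACGTG on either strand or an E-box, though each holds the uncounted GCGTG.
Gapdh (chr6:125165774-125166023, minus strand): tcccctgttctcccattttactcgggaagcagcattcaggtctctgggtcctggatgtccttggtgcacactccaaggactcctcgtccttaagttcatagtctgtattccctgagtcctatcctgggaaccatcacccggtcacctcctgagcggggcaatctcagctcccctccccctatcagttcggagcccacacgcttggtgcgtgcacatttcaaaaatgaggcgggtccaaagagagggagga
Slc2a6 (chr2:27027999-27028248, minus strand): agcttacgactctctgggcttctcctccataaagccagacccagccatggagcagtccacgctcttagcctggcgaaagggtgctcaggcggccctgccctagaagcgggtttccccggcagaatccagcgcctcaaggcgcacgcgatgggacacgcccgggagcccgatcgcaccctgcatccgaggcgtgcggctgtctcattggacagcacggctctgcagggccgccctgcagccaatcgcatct

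Genes around the pathway were read through 7 further lists of 124 genes. Of these 99 were tested, and 11 were called higher, 23 lower and 65 neither, so that 34.3% were called, near the 29.8% of all tested genes. Their median change was -0.036. Of the genes counted as lower, Pgm2l1 and Aldh1l2 passed the filter through the LysMCre/Cre arrays alone. The numbers of higher calls fell to 7, 7 and 6 without LysMCre/Cre replicates 1, 2 and 3.

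Of 15 other isoforms and steps of glycolysis, only Adpgk, an ADP-dependent glucokinase gene, was called (-0.25 ± 0.063, adjusted p = 0.00433; median of the list 0.026). Among 9 genes of pyruvate entry (median -0.023) only Pdp1, whose phosphatase reactivates pyruvate dehydrogenase, was called. It read 10.29, 10.23 and 10.17 in LysMCre/Cre and 10.67, 10.68 and 10.70 in KLF2∆/∆ arrays (0.45 ± 0.052, 1.37-fold, adjusted p = 9.34e-07), and these groups lie well apart.

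Other sources of NADPH and neighbours of the pentose phosphate pathway were lower in 6 of 15 tested cases and higher in none (median -0.18). Over all tested genes, 16.2% were lower and 13.6% higher. The mitochondrial isocitrate dehydrogenase gene Idh2 changed by -0.45 (adjusted p = 2.64e-06), the malic enzyme gene Me1 by -0.49 (1.94e-05), the triokinase gene Tkfc by -0.40 (3.94e-05) and H6pd, the hexose phosphate dehydrogenase of the endoplasmic reticulum, by -0.34 (adjusted p = 0.000121). Glycogen and gluconeogenesis genes went both ways, 3 higher and 4 lower of 17 (median -0.025). Pgm2l1, a glucose bisphosphate synthase gene, changed by -0.48 to a mean of 7.34, under the filter level, so that the LysMCre/Cre arrays alone let it pass. The glycogen synthase gene Gys1 changed by -0.33, the branching enzyme gene Gbe1 by -0.22 and the glycogenin gene Gyg by 0.18 (adjusted p = 0.000104, 0.000976, 0.0116 and 0.00881 for these 4 genes in turn).

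Further branches leave glycolysis for biosynthesis. In the hexosamine branch 4 of 10 tested genes were lower and 2 higher (median -0.048), against 16.2% and 13.6% of all tested genes. Gfpt2, which commits fructose phosphate to this branch, read 10.59, 10.71 and 10.71 against 9.31, 9.54 and 9.20 (-1.32 ± 0.072, 2.49-fold lower, adjusted p = 3.36e-11). Uap1 and Pgm3 of the same branch changed by -0.46 and -0.27 (adjusted p = 1.10e-05 and 0.00687), and Ogt, which attaches the sugar to proteins, by 0.16 (adjusted p = 0.00687). Of 9 serine and one-carbon genes 4 were lower and none higher (median -0.12). Shmt2 changed by -0.53 (adjusted p = 2.74e-07), Aldh1l2 by -0.43 to a mean of 7.29 (0.000121), Mthfd1 by -0.43 (0.000205) and Mthfd1l by -0.30 (adjusted p = 0.00135). Aldh1l2 ended under the filter level, so that the LysMCre/Cre arrays alone let it pass. In the same arrays the median change was -0.68 for fibroblast and mesothelial markers and -0.62 for cell cycle genes, and the part of these cells or of division in the falls was not tested.

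**Figure D4:**
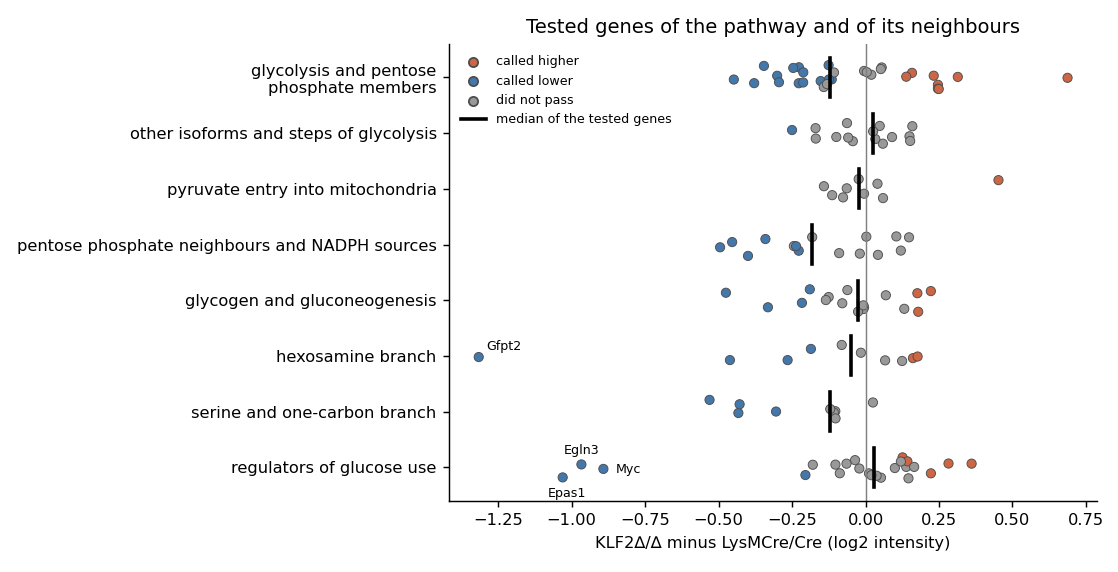
Change of every tested gene (KLF2∆/∆ minus LysMCre/Cre, log2 intensity, horizontal axis) in the 30 tested members and the 7 neighbouring lists, with the median of each as a vertical bar. Colours mark the calls, vertical scatter has no meaning, and Gfpt2, Epas1, Egln3 and Myc are named as the genes beyond 0.8 in size.

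Among 24 tested regulators of glucose use, 5 were higher and 4 lower (median 0.029), against 13.6% and 16.2% of all tested genes. Epas1, which encodes HIF-2 alpha, read 10.59, 10.54 and 10.56 in LysMCre/Cre and 9.44, 9.58 and 9.59 in KLF2∆/∆ arrays (-1.03 ± 0.057, 2.04-fold lower, adjusted p = 4.12e-11). Myc read 10.53, 10.61 and 10.62 against 9.69, 9.78 and 9.61 (-0.89 ± 0.057, adjusted p = 3.04e-10), and its partner Max was higher by 0.36 ± 0.046 (adjusted p = 3.47e-06). The oxygen-sensing hydroxylase gene Egln3, itself a known HIF target, changed by -0.97 ± 0.072 (adjusted p = 2.12e-09). Hif1a, named after its values were seen, read 12.21, 12.26 and 12.28 against 12.21, 12.28 and 12.07, with overlapping groups (-0.065 ± 0.047, adjusted p = 0.355).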

How the data were processed

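The values analysed are the log2 signals that the authors deposited for each probe set. Per the submitters' processing notes they come from Affymetrix Expression Console and RMA, a method that equalizes the arrays' distributions and so hides a shift common to most genes. The authors also deposited these values on a linear intensity scale, which differ from them by at most 5.1e-05 after log2. Versions, build and scan dates were not given in the sources used here, so array batches were not tested. Of 35557 probe sets, 6613 controls were left out; 21789 name 1 gene, 1621 several and 5534 none, and symbols were updated through RefSeq GRCm38.p6 (21698 matched).

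Both groups entered 1 two-sided fit (limma 3.58.1 under R 4.3.3, whose eBayes step used an intensity trend, without a replicate block) over the 12650 genes at or above 7.49. The fit was also run on simulated independent values with far fewer changed genes than were called here. That setting differs from these data and cannot vouch for the calls. Alternatives changed the scaling, the filter, the choice of probe set, the moderation, the thresholds and the arrays included. The number of arrays limits the precision. Members and lists were chosen with earlier results of these data known. Values per array are given for called members with a change of at least 0.25, the brightest of each role and those whose probe sets disagree; neighbouring genes are the 4 with the smallest p per list, or all called where 5 or fewer were. The Hk2 and Hk3 promoters were chosen after their values were seen. Promoter sequences are RefSeq's (GRCm38.p6). The design names 3 pairs of mice, and no label says that a replicate number marks one. Figures were drawn with matplotlib 3.10.9.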

Additional observations from a re-analysis of the deposited data

How the results depend on the processing

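Of 596 combinations of a member and 1 of 20 alternatives, 516 kept direction and side of the threshold, 68 lost the call, 1 gained it and 11 turned sign, all of the last among Aldoc, Pgam1 and Pdk3, which did not pass. Hk2, Hk3, Pfkl, Pfkfb3, Ldhb (by its brightest probe set) and Tkt kept their call in every alternative in which they were tested. The members called, 8 higher and 14 lower, became 5 and 5 without moderation of variances, 6 and 10 without the intensity trend, 6 and 9 at an adjusted p of 0.01, and 2 and 5 with a minimum change of 0.25. Leaving out 1 array gave 6 to 8 higher and 9 to 14 lower, the fewest lower (9) without LysMCre/Cre replicate 2. All genes called, 1723 higher and 2044 lower, became 969 and 1155 without moderation and 766 and 1318 with the minimum change. Pathway list genes called higher, 11, became 6 at an adjusted p of 0.01 and 3 with the minimum change, and 6 to 12 without 1 array; marker list genes called higher, 13, became 7 with the minimum change. The members' median change, -0.12, was -0.080 after repeated quantile normalization. With the replicate number as a block, 8 members were higher and 14 lower, and 1747 and 2078 of all genes. The design names 3 pairs of mice, but no label says that the replicate numbers mark them. Same-numbered arrays did not deviate together throughout (r of -0.091, 0.115 and -0.049 across genes), so the block was kept as an alternative. Arrays of the 2 groups with different numbers gave r of -0.109 to 0.182. Whether pairs of mice under other numbers left a trace was not tested. Without 1 array, the change of Aldoc ran from -0.054 to 0.045, that of Pgam1 from -0.018 to 0.028, that of Pdk3 from -0.027 to 0.10, that of Hk1 from 0.010 to 0.098, that of Ldha from 0.032 to 0.065 and that of Rpia from -0.14 to -0.041; none of these passed in the full fit. Aldoc turned to 0.0012 with repeated quantile normalization and 0.0018 with median centring. Pgam1 turned to -0.015 with repeated quantile normalization, to -0.036 with probe sets averaged and to -0.057 with either of its other probe sets. These hold the same values as each other, and this alternative was chosen after seeing the data. The cause of these differences was not tested.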
